A study of Saccharomyces cerevisiae with 12 samples.

Results

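The 10 genes described here are CHA1, its activator CHA4, and the genes that make serine and pass it on to glycine and the folate pool in the budding yeast Saccharomyces cerevisiae: SER1, SER2, SER3, SER33, SHM1, SHM2, GLY1 and GCV1. They were selected on read counts of these same libraries, with their lectin and control values already known, and were found by systematic identifier, all 10 among the 7192 features of the deposited table. All 10 also passed the filter on low counts, which left 6237 features to be tested. The cells were wild type, and YPD, a rich medium with glucose, carried every culture to the middle of exponential growth at 30 °C on a shaker set to 200 rpm. 6 samples came from cells incubated with CSL, the lectin of the clam Cyclina sinensis, and are numbered 2, 3, 4, 5, 6 and 8. 6 control samples, numbered 2, 3, 4, 6, 7 and 8, were wild-type cells from the same medium that received no treatment. The strain, the lectin dose, the length of the incubation and any mock handling of the controls are not given in the sources used here. RNA was enriched with oligo(dT) beads and sequenced as paired-end Illumina reads.

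Yeast makes serine from the glycolytic intermediate 3-phosphoglycerate. Ser3 and Ser33 are isozymes of the dehydrogenase that opens the pathway, Ser1 is the aminotransferase that follows, and Ser2 is the phosphatase that releases serine. Shm1 in mitochondria and Shm2 in the cytosol convert serine and glycine into each other and load or unload a carbon unit on folate. Gly1 makes glycine by splitting threonine, and Gcv1 is a subunit of the mitochondrial glycine cleavage complex. Cha1 is a mitochondrial deaminase that breaks down serine and threonine, which lets cells use them as nitrogen sources. Cha4 is a zinc cluster transcription factor that activates CHA1 when serine or threonine is plentiful. Cha4 is also known to activate SRG1, a non-coding RNA whose transcription runs across the SER3 promoter and represses SER3.

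The promoter of CHA1 and that of SRG1 are shown because Cha4 is known to activate both, and because both RNAs were higher in the lectin samples, as described below. Each sequence is the 300 bases before the annotated start in RefSeq's R64 assembly, the build named in the submitters' processing notes, and is written 5′ to 3′ on the strand of the gene. In CHA1 the capitals mark both copies of the spaced pair GCGGANNNNNNATTCC, and in SRG1 they mark GCGGA.
CHA1 (chrIII:16881-17180, minus strand): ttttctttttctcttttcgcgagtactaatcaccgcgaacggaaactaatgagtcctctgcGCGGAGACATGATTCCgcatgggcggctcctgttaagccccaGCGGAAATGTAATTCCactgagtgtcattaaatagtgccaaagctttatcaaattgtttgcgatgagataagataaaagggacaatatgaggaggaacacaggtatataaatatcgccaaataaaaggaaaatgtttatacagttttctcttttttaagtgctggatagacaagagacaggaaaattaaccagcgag
SRG1 (chrV:321912-322211, plus strand): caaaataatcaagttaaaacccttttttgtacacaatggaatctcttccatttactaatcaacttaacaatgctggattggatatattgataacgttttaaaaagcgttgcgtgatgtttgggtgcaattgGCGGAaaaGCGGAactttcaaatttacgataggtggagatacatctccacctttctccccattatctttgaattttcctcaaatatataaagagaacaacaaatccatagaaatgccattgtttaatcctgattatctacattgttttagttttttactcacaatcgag
The spaced pair was chosen after the CHA1 promoter had been read, so the CHA1 window was bound to hold it and its rarity is only a description. Both strands were searched. Its 2 copies begin 239 and 197 bases before the CHA1 start. Of 6020 windows of the same length before protein-coding genes, 3 (0.0498%) held the pair at least once. 2 of the windows (0.0332%) held it at least 2 times, and these were the overlapping windows of CHA1 and of VAC17, the neighbour that is read in the opposite direction. The SRG1 window did not hold the pair. It held the first element, GCGGA, 2 times, at 169 and 161 bases before the start, and 148 windows (2.46%) held that element at least 2 times. The letters TATAAA, searched on both strands as a TATA element, were held by 48.4% of the windows. On the strand of the gene they began 92 bases before the CHA1 start and 84 bases before the SRG1 start. The start is that of the coding sequence in CHA1 and in the 6020 windows, but that of the RNA in SRG1. Distances and counts in SRG1 are thus not taken from a like point.

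A 6-letter core, TGACTC, bound by the amino acid and purine regulators Gcn4 and Bas1, was searched on both strands. It was found in the 300-base windows of 5 of the 10 genes (50%), against 7.74% of the 6020 windows. Those genes were SER1, SER2, SER33, SHM2 and GCV1. It was not found in the windows of CHA1, CHA4, SER3, SHM1 or GLY1. Each occurrence is shown with 15 bases on either side, with the core (TGACTC, or GAGTCA where it lies on the other strand) in capitals.
SER1 (chrXV:679158-679193, plus strand): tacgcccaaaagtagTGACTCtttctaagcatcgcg
SER2 (chrVII:911713-911748, plus strand): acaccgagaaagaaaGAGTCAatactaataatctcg
SER33 (chrIX:222624-222659, minus strand): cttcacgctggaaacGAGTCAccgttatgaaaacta
SHM2 (chrXII:259658-259693, minus strand): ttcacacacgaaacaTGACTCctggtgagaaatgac
SHM2 (chrXII:259608-259643, minus strand): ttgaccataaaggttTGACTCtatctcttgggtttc
GCV1 (chrIV:485488-485523, minus strand): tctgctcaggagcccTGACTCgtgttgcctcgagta
The cores begin 184 bases before the start in SER1, 155 in SER2, 154 in SER33, 277 and 227 in SHM2, and 143 in GCV1. The letters CTTCTT, the core described for the glycine response of GCV genes, were found in 4 of the 10 windows (40%), those of CHA4, SER33, SHM2 and GCV1, and in 35.7% of all windows. GATAAG, the element of the nitrogen-regulating GATA factors, was found in 3 of the 10, CHA1, SER1 and SER3, against 14.6% of all windows. CACGTG, the Cbf1 element, was found in SER33 alone of the 10, against 3.55% of all windows, and CGGGTAA, the Reb1 element, in none of the 10, against 7.87%. A match is a run of letters and was not tested as a binding site.

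The breakdown gene CHA1 was 1.81-fold higher in the lectin samples, while of the 4 synthesis genes SER33 was lower at 0.782-fold and SER1, SER2 and SER3 lay between 0.965-fold and 1.01-fold of the controls. GLY1, GCV1 and CHA4 were 1.12-fold, 1.12-fold and 1.14-fold higher, and both serine hydroxymethyltransferase genes did not pass the test. Because the 10 genes were selected with this contrast in view, their differences are given as descriptions with no p-value. By the DESeq2 Wald test at an adjusted p under 0.05, 5 of the 10 were called, where 31.5% of the 6237 tested features were. 4 were called higher and 1 lower, beside 15.4% higher and 16.1% lower over all features. edgeR's quasi-likelihood test called the same 5 genes, beside 29.1% of all features. No inference is drawn from these counts. The groups did not overlap in 3 of the 10, each higher with lectin, and of all tested features 12.6% were apart, 5.85% higher and 6.72% lower with lectin. None of the 10 reached the absolute log2 fold change of at least 1 that the study required as well, a bar passed by 0.257% of the tested features. The median log2 fold change was 0.004 over the 10 genes and 0.002 over all tested features. In bulk RNA, fewer cells of a kind and less RNA per cell cannot be told apart.

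**Figure D1:**
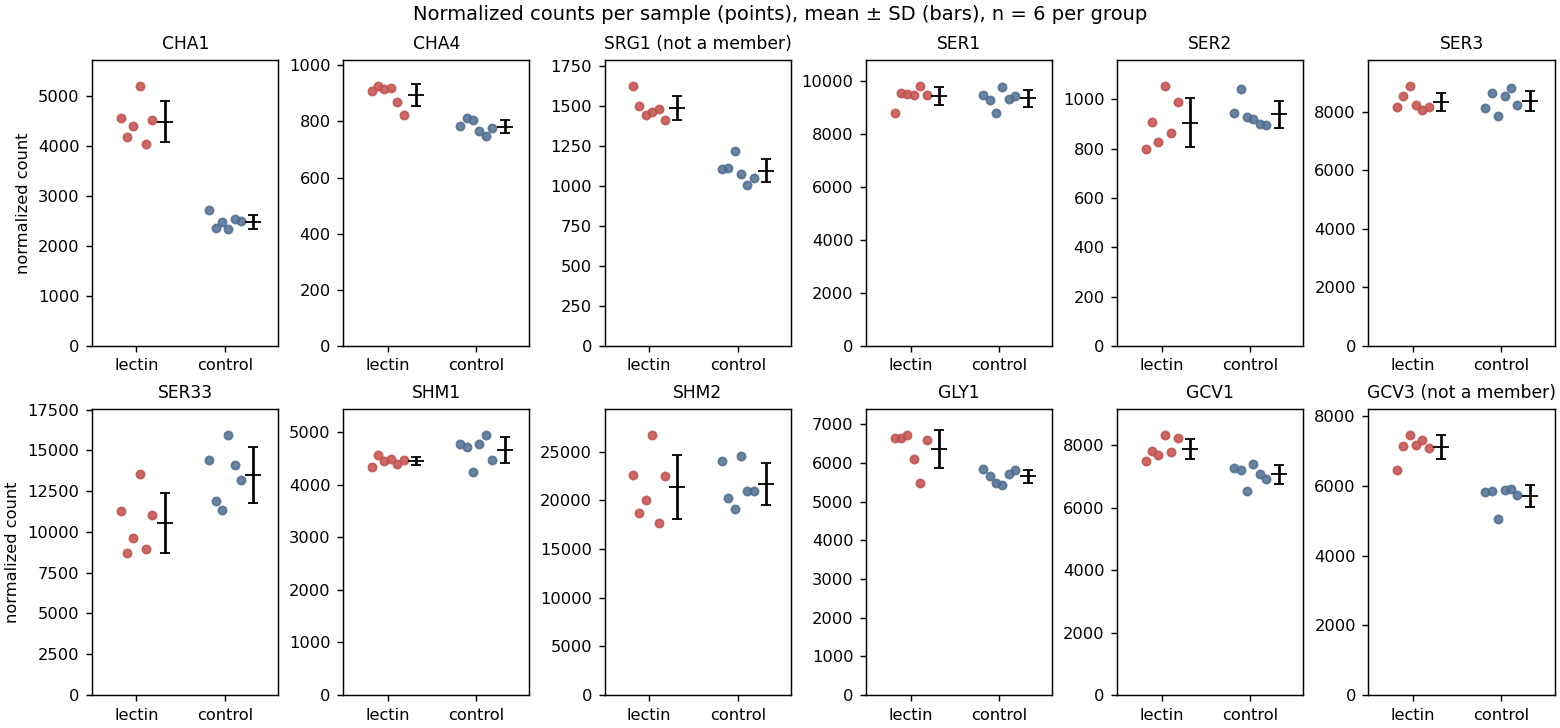
Normalized counts (raw counts divided by the library's size factor) of the 10 genes, SRG1 and GCV3 in each of 6 lectin and 6 control samples, with the mean and SD as bars and each axis starting at 0. CHA1 lay between 4033 and 5189 in the lectin samples and between 2336 and 2716 in the controls, while SER1, SER2 and SER3 overlapped between the groups.

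CHA1 (YCL064C, chromosome III, 15798 to 16880, minus strand) had 4559.5, 4163, 4401, 5189, 4033 and 4518 normalized counts in lectin 2, 3, 4, 5, 6 and 8, against 2716, 2345, 2471, 2336, 2526 and 2484 in control 2, 3, 4, 6, 7 and 8. Every lectin sample was above every control sample, and the gap between the groups was wider than the whole range of the controls. The mean was 4477 ± 404 with lectin and 2479.8 ± 139 in the control (SD, n = 6 each), a log2 fold change of 0.85 ± 0.061 (SE). Lectin 5, which is also the largest library, held the highest value. Without lectin 5 and in each of the other fits that left out a sample, the log2 fold change stayed between 0.81 and 0.88.

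CHA4 (YLR098C, chromosome XII, 337527 to 339473, minus strand) ran from 823 to 926 normalized counts with lectin, with a median of 913, and from 748 to 811 in the controls, with a median of 779. The groups did not overlap, with a gap that was small beside their ranges. The log2 fold change was 0.19 ± 0.048 (SE), and the call was lost with the replicate number as a block on 10 samples, where the value was 0.17. The activity of the Cha4 protein was not measured here.

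SRG1, the non-coding RNA read into SER3, is not one of the 10 and was listed with the regulators. It ran from 1415 to 1626 normalized counts with lectin, with a median of 1472, and from 1007 to 1221 in the controls, with a median of 1092. The groups did not overlap. SRG1 rose 1.36-fold, or 0.44 ± 0.053 (SE) on the log2 scale (adjusted p = 6.28e-15 in DESeq2, 5.80e-06 in edgeR), higher in 6 of 6 lectin samples. In R64 it spans chromosome V, 322212 to 322762, on the plus strand, and its last 77 bases overlap the start of SER3 on the same strand. Reads from those bases cannot be given to either feature with certainty, and how they were counted is not given in the sources used here.

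SER3 (YER081W, chromosome V, 322686 to 324095, plus strand), which lies downstream of SRG1, did not pass the test. It ran from 8071 to 8886 normalized counts with lectin, with a median of 8203, and from 7871 to 8817 in the controls, with a median of 8398. The 2 ranges covered each other almost completely. The log2 fold change was -0.01 ± 0.039 (SE). Among deviations of single samples from their group means, CHA1 and SRG1 had a correlation of -0.04 over 12 samples, given as a description.

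SER33 (YIL074C, chromosome IX, 221081 to 222490, minus strand) was the member that fell. It ran from 8715 to 13579 normalized counts with lectin, with a median of 10361, and from 11369 to 15938 in the controls, with a median of 13639.8. The groups overlapped, since lectin 5 at 13579 lay among the controls. The log2 fold change was -0.35 ± 0.103 (SE) with all samples and -0.44 without lectin 5. SER3 and SER33 are 83.3% identical over 1391 aligned bases, with 56 bases as the longest identical run, so reads inside such runs may have been dropped or divided between them.

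The balance of the isozymes was read within each sample. The level of SER3 per kilobase of coding length was 0.607 to 0.983 times that of SER33 with lectin and 0.537 to 0.725 times in the controls. The ranges overlapped, and the mean log2 ratio was -0.32 ± 0.265 with lectin and -0.68 ± 0.166 in the control (SD, n = 6 each), a difference of 0.36.

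SER1 (YOR184W, chromosome XV, 679357 to 680544, plus strand) ran from 8802 to 9805 normalized counts with lectin, with a median of 9495, and from 8799 to 9782 in the controls, with a median of 9373. Lectin 2, at 8802, stood below the other lectin samples. The log2 fold change was 0.01 ± 0.036 (SE). SER2 (YGR208W, chromosome VII, 911883 to 912812, plus strand) ran from 797 to 1054 normalized counts with lectin, with a median of 884, and from 896 to 1043 in the controls, with a median of 926, a log2 fold change of -0.05 ± 0.070 (SE), and control 3, at 1043, stood above the other controls. Both genes overlapped between the groups over most of their range, and neither passed the test.

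**Figure D2:**
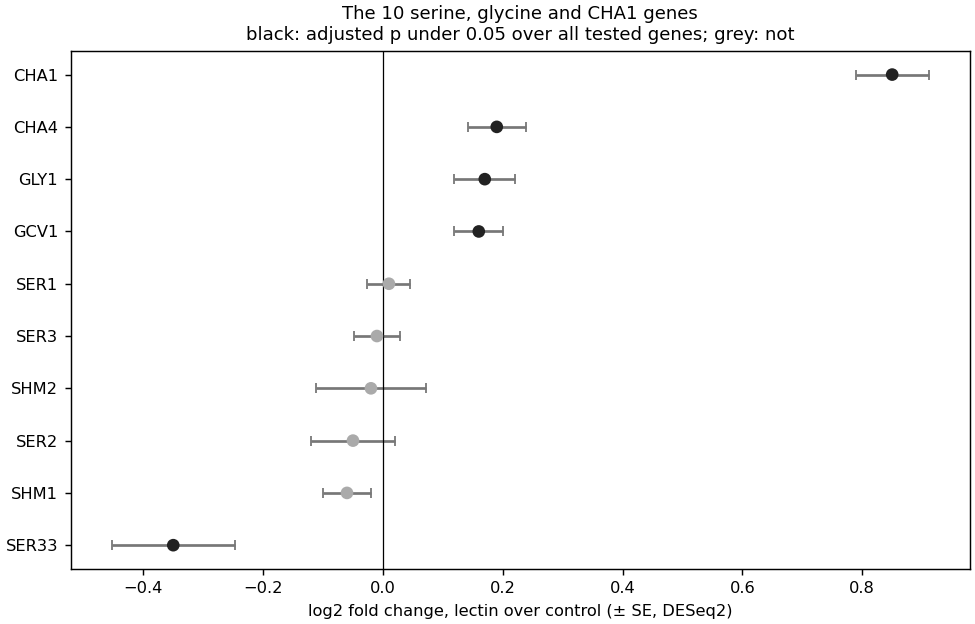
Log2 fold change of the 10 genes, lectin over control, from DESeq2 with the standard error as bars. CHA1 at 0.85 and SER33 at -0.35 stand at the ends, CHA4, GLY1 and GCV1 lie between 0.16 and 0.19, and the other 5 lie between -0.06 and 0.01.

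Among the genes that turn serine into glycine, neither hydroxymethyltransferase passed the test. SHM1 (YBR263W, chromosome II, 736264 to 737736, plus strand) ran from 4342 to 4574 normalized counts with lectin, with a median of 4465, and from 4249 to 4946 in the controls, with a median of 4742. The lectin samples lay inside the range of the controls, and the log2 fold change was -0.06 ± 0.040 (SE). Without control 4, the lowest control, SHM1 was called lower at -0.09. SHM2 (YLR058C, chromosome XII, 257992 to 259401, minus strand) ran from 17670.05 to 26686 normalized counts with lectin, with a median of 21268, and from 19097 to 24593 in the controls, with a median of 20975. Its log2 fold change was -0.02 ± 0.092 (SE), and ran from -0.09 to 0.03 as each sample was left out. The level of SHM1 per kilobase was 0.161 to 0.239 times that of SHM2 with lectin and 0.186 to 0.226 times in the controls.

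GLY1 and GCV1, which make and cleave glycine, were called higher. GCV1 (YDR019C, chromosome IV, 484163 to 485365, minus strand) ran from 7483 to 8327 normalized counts with lectin, with a median of 7795, and from 6539 to 7399.8 in the controls, with a median of 7142. Every lectin sample exceeded every control, the closest pair by a small margin, and the log2 fold change was 0.16 ± 0.041 (SE). GLY1 (YEL046C, chromosome V, 67629 to 68792, minus strand) ran from 5490.2 to 6717 normalized counts with lectin, with a median of 6614, and from 5424 to 5834 in the controls, with a median of 5685. The groups overlapped through lectin 6 at 5490.2, and the log2 fold change was 0.17 ± 0.051 (SE).

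Set against each other within a sample, CHA1 stood higher relative to both groups of genes. The level of CHA1 per kilobase was 0.175 to 0.195 times the summed level of SER1, SER2, SER3 and SER33 with lectin, and 0.0811 to 0.103 times in the controls. The ranges were far apart. The mean log2 ratio was -2.44 ± 0.055 with lectin and -3.41 ± 0.122 in the control (SD, n = 6 each), a difference of 0.98. Relative to the summed level of SHM1, SHM2, GLY1 and GCV1, CHA1 was at 0.132 to 0.14 with lectin and 0.0685 to 0.0858 in the controls, a difference in mean log2 ratio of 0.81. The synthesis genes relative to the glycine and one-carbon genes were at 0.714 to 0.797 with lectin and 0.796 to 0.863 in the controls, which overlapped at their edge, with a difference in mean log2 ratio of -0.17.

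**Figure D3:**
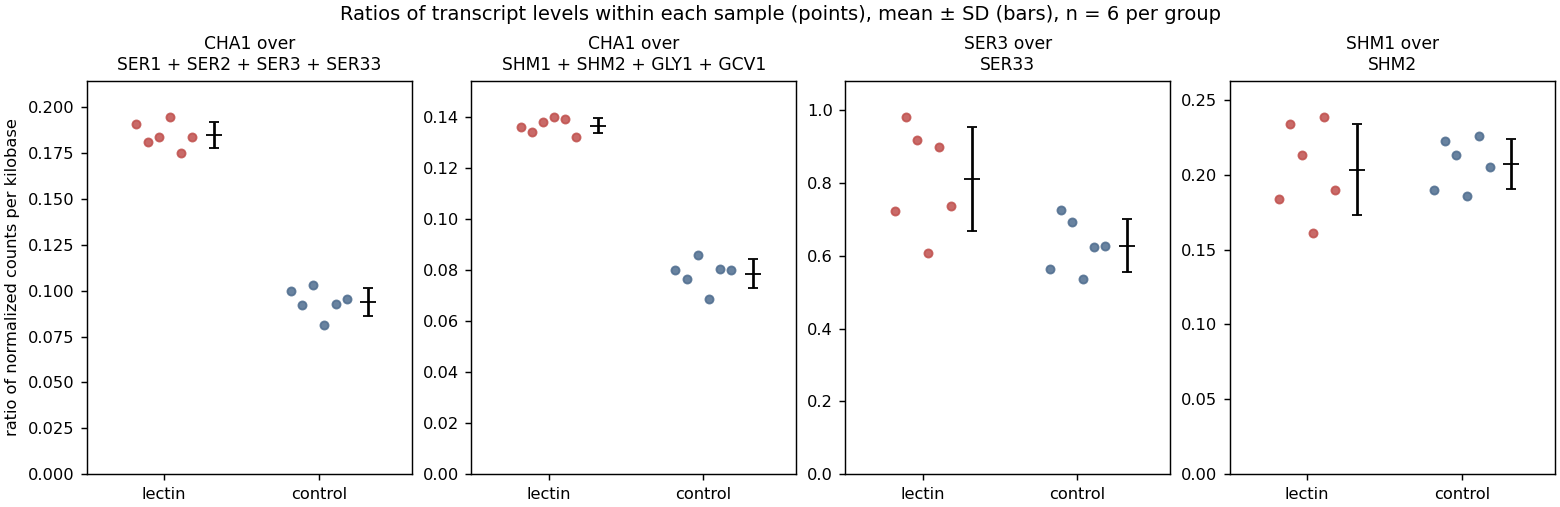
Ratios of normalized counts per kilobase within each sample, with mean and SD as bars, 6 samples per group. In the first 2 panels every lectin sample is above every control (0.175 to 0.195 against 0.0811 to 0.103, and 0.132 to 0.14 against 0.0685 to 0.0858), and in the other panels the groups overlap.

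Per kilobase of coding length, SHM2 was the highest of the 10 in both groups, at 15160.4 ± 2322 normalized counts with lectin and 15359 ± 1552 in the control (SD, n = 6 each), and no sample of another member reached its range. CHA4, at 459 ± 20.7 with lectin and 401 ± 12.1 in the control, was the lowest, below SER2 at 974 ± 106 with lectin and 1009.8 ± 58.2 in the control. With lectin, SER1, SER33, GCV1, SER3, GLY1 and CHA1 followed SHM2 in that order, and the ranges of neighbours among these 6 overlapped. In the controls the order was SER33, SER1, SER3, GCV1, GLY1 and SHM1, of which SER33 overlapped SER1, and SER3 overlapped GCV1. CHA1 stood above SHM1 with lectin, at 4134 ± 373 against 3025 ± 53.4, with no overlap. In the controls it stood below SHM1, at 2289.7 ± 129 against 3162 ± 169.97, again with no overlap.

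Within the groups, SER33 and SHM2 varied together from sample to sample. Deviations of the log2 normalized count from the mean of the sample's own group were compared over the 12 samples for all 45 pairs of members. SER33 and SHM2 had a Pearson r of 0.96 (exact permutation within groups, two-sided p = 9.65e-06, adjusted over 45 pairs 4.34e-04) and a Spearman rho of 0.97 (exact permutation p = 2.31e-05, adjusted 0.00104). The correlation was 0.98 within the 6 lectin samples and 0.92 within the 6 controls. It was 0.93 without lectin 3 and lectin 5, the samples farthest from the median in SER33. With lectin 5 alone left out it was 0.93, with an adjusted exact permutation p of 0.025. Lectin 5, the largest library, was highest in its group for both genes, at 0.38 log2 units above the group mean in SER33 and 0.33 in SHM2. Control 6 was highest in the other group, at 0.25 and 0.19. Control 4, the largest control library, was the lowest control for both genes, at -0.24 in SER33 and -0.18 in SHM2. The part of library size in this was not tested.

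No other pair passed the adjusted threshold. CHA1 and SHM2 had a Pearson r of 0.75 and a Spearman rho of 0.72 (exact permutation p = 0.0121 and 0.0207, adjusted over 45 pairs 0.178 and 0.25). That relation rested on lectin samples, with r = 0.98 within the 6 lectin samples and 0.20 within the 6 controls, and it was 0.42 without lectin 5 and lectin 6. CHA1 and CHA4 had an r of 0.07 over the 12 samples. The tested genes most like CHA1 within groups, among 5655 with a mean of at least 100 normalized counts, were SRL3 (r = 0.93), RPL15B (0.92), MRP8 (0.92), CAR1 (0.91) and PEA2 (0.91). These are descriptions over 12 samples with no p. None of the 5 passed the test between the groups, with log2 fold changes from -0.12 to 0.01 and adjusted p from 0.0769 to 0.943 (DESeq2).

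**Figure D4:**
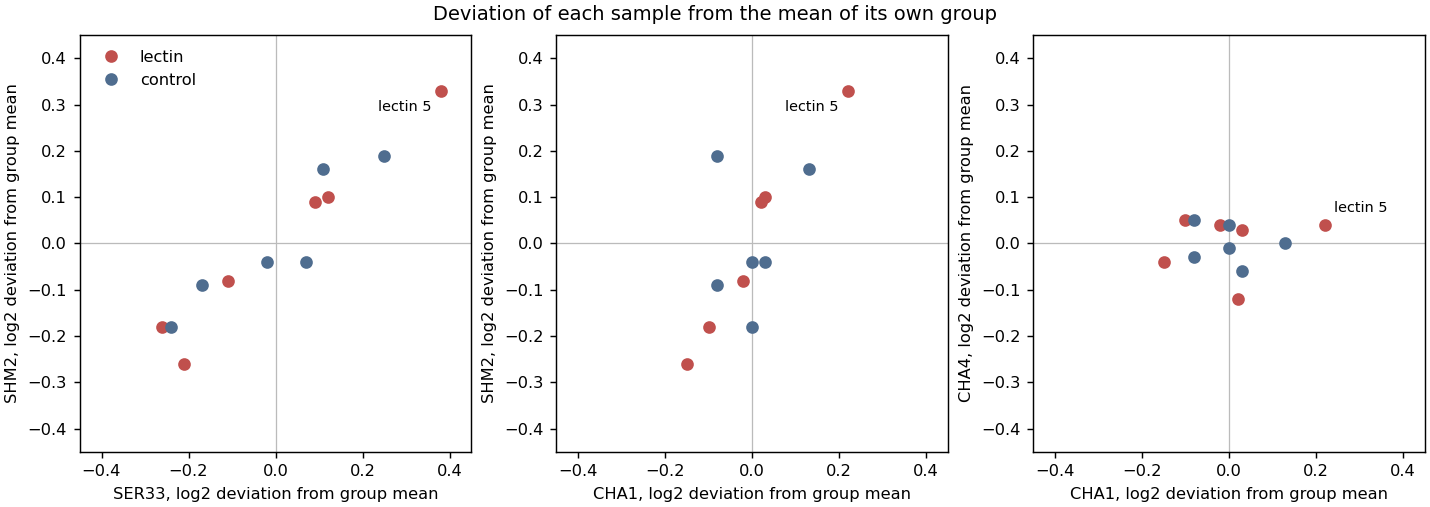
Deviation of each sample from the mean of its own group on the log2 scale, for SER33 and SHM2, CHA1 and SHM2, and CHA1 and CHA4, with 6 lectin and 6 control samples in each panel. SER33 and SHM2 fall along a line in both groups (r = 0.96), r for CHA1 and SHM2 is 0.98 among lectin samples and 0.20 among controls, and r is 0.07 for CHA1 and CHA4.

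Beyond the 10 genes, 43 other genes of the pathway were read from 5 lists, drawn up with earlier results of these data known, and all 43 were tested. 7 were called higher and 15 lower, 51.2% against 31.5% of all tested features, and their median log2 fold change was -0.078 against 0.002. In the folate and one-carbon list, 1 of 15 genes was higher and 2 lower. Without lectin 5, 3 were higher and 3 lower. The genes added were MIS1 at 0.13 (DESeq2 adjusted p = 0.023), MET12 at 0.17 (0.00132) and MET13 at -0.19 (0.0183), all of them folate enzymes. They were called with the replicate block too, where 3 were higher and 2 lower, but its 10 samples also leave out lectin 5. On those 10 samples with no block they were called as well (DESeq2 adjusted p = 0.0116, 8.50e-04 and 0.0322). GCV3 (YAL044C), the lipoyl carrier protein of the glycine cleavage complex, ran from 6464 to 7462 normalized counts with lectin and from 5067, in control 4, to 5924 in the controls, with no overlap. Its log2 fold change was 0.31 ± 0.048 (SE), and the adjusted p in DESeq2 was 2.13e-09. GCV2, the decarboxylase of the same complex, averaged 7337 ± 498 with lectin and 7713 ± 725 in the control (SD, n = 6 each), and did not pass (log2 fold change -0.07, DESeq2 adjusted p = 0.422). The subunits of the complex thus did not all pass the test, with GCV1 and GCV3 higher and GCV2 and LPD1 not called.

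The lower genes of the folate list were CDC21, thymidylate synthase, and MET7, which adds glutamates to folate. CDC21 fell by 0.27 on the log2 scale (DESeq2 adjusted p = 0.00362). MET7 fell by 0.12 (DESeq2 adjusted p = 0.0202). The call for MET7 was lost without lectin 2, lectin 4, control 2 or control 3, with adjusted p from 0.0546 to 0.0597, and was 0.13 with the replicate block.

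In the threonine branch, whose product is the substrate of Gly1 and of Cha1, 4 of 6 genes were lower and 1 higher by DESeq2, and 3 lower and 1 higher by edgeR. THR4, threonine synthase, was the least stable of the lower genes, at -0.14 (DESeq2 adjusted p = 0.0461), and its call was lost when any sample but lectin 5 was left out (adjusted p from 0.054 to 0.114). Without lectin 6, control 3, control 7 or control 8, the list had 3 lower genes and 0 higher. HOM6, homoserine dehydrogenase, ran from 7857 to 9119 normalized counts with lectin and from 9274 to 11071 in the controls, with no overlap. It fell by 0.30 on the log2 scale (DESeq2 adjusted p = 1.27e-07). HOM2 fell by 0.19 (adjusted p = 0.00108). ILV1, the threonine deaminase of isoleucine synthesis, fell by 0.13 (DESeq2 adjusted p = 0.0119). HOM3, aspartate kinase, rose by 0.16 (DESeq2 adjusted p = 0.0212). That call was lost without lectin 6, control 3, control 7 or control 8, with adjusted p from 0.0539 to 0.0609. It was also lost on the 10 samples of the replicate block, both with the block (adjusted p = 0.109) and with no block (0.0938).

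Among 9 other enzymes that use serine or make glycine, 5 were lower and 0 higher by DESeq2, and 4 lower and 0 higher by edgeR. With the replicate block 3 were lower. CHO1, the phosphatidylserine synthase that joins serine to a lipid head group, ran from 2216 to 2587 normalized counts with lectin and from 3111 to 3429 in the controls. The groups were well apart, the log2 fold change was -0.44 ± 0.045 (SE), and the adjusted p in DESeq2 was 2.34e-20. GRS1, glycyl-tRNA synthetase, fell by 0.32 on the log2 scale (DESeq2 adjusted p = 4.75e-13), also with no overlap. SES1, seryl-tRNA synthetase, fell by 0.19 (DESeq2 adjusted p = 0.00158). AGX1, a glycine-making enzyme of this list, fell by 0.16 (adjusted p = 0.00561 in DESeq2, 0.0158 in edgeR), opposite in direction to GLY1. The AGX1 call was lost with the replicate block (DESeq2 adjusted p = 0.0803).

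Of 9 regulators, 5 were higher and 0 lower by both DESeq2 and edgeR, and 4 were higher without lectin 3, lectin 6, control 4 or control 7, each of which took the call of BAS1. Beside SRG1 they included STP1 and STP2, transcription factors released by the amino acid sensor at the plasma membrane, at log2 fold changes of 0.21 and 0.17 (DESeq2 adjusted p = 1.13e-05 and 9.87e-04). GCN4, the general activator of amino acid synthesis, did not pass at 24936 ± 2782 normalized counts with lectin and 27151 ± 937 in the control (SD, n = 6 each; DESeq2 adjusted p = 0.132). GCN4 was called lower in DESeq2 fits without lectin 5 (-0.18, adjusted p = 9.34e-04), with the replicate block on 10 samples (-0.18, 0.0164), on the same 10 without it (-0.17, 0.00337), and with 1 surrogate variable on all samples (-0.09, 0.0206). The 10 samples of the block also leave out lectin 5. GCN4 is controlled mainly at translation, which these data do not measure.

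All 4 genes in the list of permeases that carry serine were called lower, where 16.1% of all tested features were. Permeases outside the list were not read here. GAP1 ran from 3239 to 3998 normalized counts with lectin and from 5082 to 6687 in the controls, and fell by 0.74 on the log2 scale (DESeq2 adjusted p = 3.83e-24). GNP1 and DIP5 fell by 0.59 and 0.36 (DESeq2 adjusted p = 8.08e-09 and 3.66e-07), and AGP1, named to complete the list, fell by 0.30 (adjusted p = 1.33e-04).

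**Figure D5:**
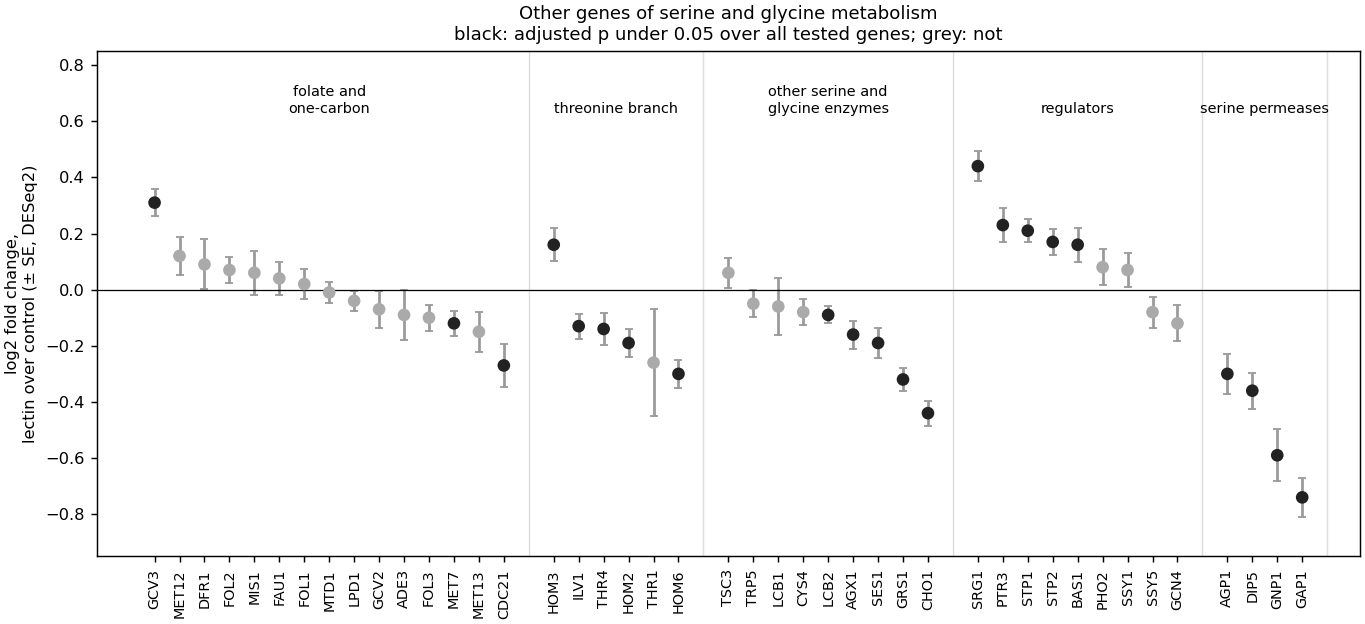
Log2 fold change, lectin over control, of the 43 other genes of the pathway by list, with the standard error from DESeq2 as bars. SRG1 at 0.44 and GCV3 at 0.31 are the highest of the 43, and GAP1 at -0.74 the lowest, with all 4 listed permeases below 0.

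CHA1 lies near the silent mating locus HML on the left arm of chromosome III, so its neighbours were read as well. On the left, HMLALPHA1, HMLALPHA2 and YCL068C had at most 1.06, 6.38 and 1.01 normalized counts in any lectin sample, and at most 1.06, 8.54 and 2.07 in any control, and were not tested. R64 also holds MATALPHA1 and MATALPHA2, with the same lengths as HMLALPHA1 and HMLALPHA2 (528 and 633 bases). Reads that match both places may have been dropped, so the low counts do not show that the locus was silent. Beyond YCL068C, both further genes read on that side were called higher. GEX1 ran from 53.5 to 75.1 normalized counts with lectin and from 28.3 to 53.4 in the controls, and rose by 0.54 on the log2 scale (DESeq2 adjusted p = 0.0062). VBA3 ran from 9.57 to 21.3 with lectin and from 1.81 to 13.7 in the controls, and rose by 1.18 (DESeq2 adjusted p = 0.0146), a call lost without lectin 6 (adjusted p = 0.0512). Without lectin 3, lectin 4, control 7 or control 8, DESeq2 gave VBA3 no adjusted p. Both lie near the chromosome end and have close copies elsewhere in the genome, so their reads may be shared. On the right, VAC17 (YCL063W), which faces away from CHA1 across 409 bases and whose own window overlaps the one printed above, fell by 0.24 on the log2 scale (DESeq2 adjusted p = 0.00105). MRC1 rose by 0.30 (DESeq2 adjusted p = 5.44e-04), and KRR1 was at -0.03 (DESeq2 adjusted p = 0.691).

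Total counts ran from 17303313 to 21354011 over the 12 libraries, with lectin 5 the largest. As a check of the strain, genes often deleted in laboratory yeast (URA3, LEU2, HIS3, TRP1 and MET17) were all detected, at a summed 69060 to 115751 raw counts with lectin and 78682 to 99704 in the controls. Markers of both mating types were detected. The 4 MATa genes summed to 634 to 851 raw counts with lectin and 935 to 1096 in the controls, with MFA2 and STE2 apart between the groups. The 3 MATalpha genes summed to 822 to 1176 with lectin and 1254 to 1585 in the controls. Of these, MFALPHA1 was apart, at 539 to 765 against 965 to 1223, while MFALPHA2 (109 to 186 against 120 to 143) and STE3 (174 to 248 against 169 to 223) overlapped. The 2 genes of entry into meiosis summed to 1482 to 2193 raw counts with lectin and 1251 to 1545 in the controls. The part of these differences in the results above was not tested. The study's design text calls the replicates biological without saying whether they were separate cultures. The p-values set the difference between groups against the spread among these samples, which may not be that of separate cultures.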

How the data were processed

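RNA of 12 yeast samples (6 lectin, 6 control) was measured by sequencing. The deposited values are raw read counts per gene: the authors trimmed paired-end reads, aligned them with HISAT2 and used featureCounts, per the series' design text, which speaks of FPKM while the table holds whole-number counts. fastp and the R64 build are named in the submitters' processing notes. The annotation, the strand setting, the treatment of multi-mapping reads and the versions are not given in the sources used here. Reads of overlapping or near-identical genes may have been dropped or divided, which could shift SRG1, SER3 and SER33.

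Features that reached 10 counts in 6 or more libraries went into DESeq2 1.42.0 in R 4.3.3 (the test named in the series' design text), lectin against control, Wald test, unshrunken log2 fold changes and Benjamini-Hochberg adjusted p-values over all 6237 features, called under 0.05. edgeR 4.0.16 (quasi-likelihood), limma-voom 3.58.1, other scalings and filters, 1 surrogate variable (sva 3.50.0), a replicate block and leaving out each sample were alternatives. The fits were first tested on simulated data, with 50 genes changed at each fold. DESeq2 and edgeR each recovered 72% of the genes changed 1.2-fold and 94% of those changed 1.5-fold. Of the calls, 6.63% were false with DESeq2 and 3.17% with edgeR. The simulated counts were drawn independently, and far fewer genes were changed than the 1965 called in the data. The shares recovered and the shares of false calls may therefore differ in the data. Changes smaller than 1.2-fold were not simulated, so recovery of changes as small as those of CHA4, GLY1 and GCV1 is not known. Normalized counts are counts divided by size factors. Levels between genes were compared per kilobase of annotated length, which holds no untranslated regions. Correlations used log2(normalized count + 1) with group means removed. Names, positions and promoters came from RefSeq R64, which named 6048 of 7192 identifiers, and copies were sought with BLAST 2.17.0.

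The 10 genes, the lists and the tests were chosen with earlier results of these data known. Named by rule were the 10 genes, up to 3 genes per list and direction with the smallest adjusted p, SRG1, GCN4, ILV1, GCV2 and GCV3, the 3 nearest neighbours of CHA1 on each side, and the 5 genes most like CHA1. AGP1, AGX1, BAS1, LCB2, LPD1, MET12, MET13, MIS1, THR1, THR4, GEX1, VBA3 and the marker genes are named as members of their lists. Each was named after its values were seen.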

Additional observations from a re-analysis of the deposited data

Results flagged for a closer look

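Dixon's 95% limit was applied to 40 sets of 6 values, 15 genes and 5 ratios in lectin and in control samples. 3 sets held a sample standing apart by it, and about 2 would by chance. SER1 had 8802 normalized counts in lectin 2, while the remaining lectin samples had 9457 to 9805. SER2 was at 1043 in control 3, above the 896 to 945 of the other controls. GCV3 was at 5067 in control 4, below the 5734 to 5924 of the other controls, and it stayed called higher with lectin when control 4 was left out.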

How the results depend on the processing

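The count of the 10 genes called was 5 with DESeq2, edgeR and limma-voom alike, and 4 with the replicate block, where CHA4 lost its call. Leaving out each sample gave 5 to 6, the sixth being SHM1 without control 4. No direction of a called gene among those named was reversed under any alternative run. CHA1 lay between 0.81 and 0.88 and SER33 between -0.44 and -0.29. The count over all tested features was 1965 and ran from 1646 to 2419 with a sample left out. It was 1730 with the replicate block on the 10 samples whose number occurs in both groups and 2342 on the same 10 without it. The correlation of deviations in the 5 same-numbered pairs ran from -0.122 to 0.186, and 1 of 5 lectin samples was closest to the control of its own number, so the numbers were not taken as pairs. The difference in the log2 ratio of CHA1 to the synthesis genes was 0.93 to 1 with a sample left out and 0.95 from mean log2 levels. The 43 other pathway genes had 22 calls and 19 to 26 with a sample left out. The correlation of SER33 and SHM2 within groups stayed between 0.93 and 0.98 with each sample left out, a check chosen after seeing the data, with adjusted exact permutation p from 0.000521 to 0.025. THR4 and LCB2 were not called by edgeR or limma-voom (adjusted p from 0.05 to 0.0683). The median log2 fold change of all features was between -0.0039 and 0.0017 over the 3 scalings.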
